A study of Mus musculus with 2 samples.

Results

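The cells described here are colon macrophages that carry the complement transcripts C1qa, C1qb and C1qc together with high levels of the chemokine transcripts Ccl3 and Ccl4. They were chosen from their own measured values. A cell entered the C1q gate if C1qa, C1qb and C1qc together made up at least 0.2% of its unique molecular identifiers (UMIs, each marking 1 captured transcript) and at least 3 UMIs, and if it had no UMI of the lymphocyte genes Cd3e, Cd3d and Cd79a. It was called high if Ccl3 and Ccl4 together made up at least 0.5% of its UMIs, and low otherwise. Of 5111 cells that passed the filter, 601 met the C1q gate and 124 of these were high, 26 from the WT library and 98 from the KO library. The remaining 376 WT and 101 KO cells of the gate were low.

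The study sequenced single cells of the mouse colon lamina propria, described in the labels as cd11b+, from WT mice and from knockout (KO) mice that lack a long non-coding RNA labelled LncRNA17Rik, which the study calls lncLy6c. Per the study, the sample was pooled from 6 male mice aged 8 weeks, and the labels name no treatment for either group. Each genotype was 1 library. No difference between genotypes therefore has a replicate check, no test was made, and every interval given covers counting error only. LncRNA17Rik is not a symbol among the deposited features, so the deletion itself was not checked here.

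C1q is the recognition molecule of the classical complement pathway, and tissue macrophages are a main source of its transcripts. Ccl3 (MIP-1 alpha) and Ccl4 (MIP-1 beta) are neighbouring CC chemokine genes whose products attract monocytes, T cells and natural killer cells. They are induced quickly when macrophages sense microbial products, as are Tnf, Cxcl2 and Ifnb1. In the gut, resident macrophages arise from blood monocytes that lose Ly6c2 and Ccr2 and gain MHC class II and C1q.

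The high cells were sampled unequally in the 2 libraries. The WT high cells summed to 146051 UMIs and the KO high cells to 955124, with a median of 4195 and 8914 UMIs per cell, respectively. Low C1q cells had medians of 5195 UMIs in WT and 8343 in KO. The median mitochondrial share in high cells was 4.07% in WT and 5.05% in KO. The libraries shared 1 barcode, and none among the C1q cells. One WT high cell held 21267 UMIs, or 14.6% of all UMIs of the WT high cells. Values without that cell are given below beside results of several genes and lists. List counts without it are given with no background share.

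The cells were checked against 20 genes of macrophage identity. All 20 were detected in the high cells of both libraries, and their summed level was 27737 counts per 1000000 UMIs (CPM) in WT and 23445 CPM in KO, against 23360.3 and 27400.0 CPM in low cells. Csf1r, the receptor that macrophages need for survival, had 835 CPM in WT high cells and 682 CPM in KO high cells. The WT cell of greatest depth held 39.3% of the WT UMIs, and without it the WT level was 593 CPM, below that of KO. It was detected in 19 of 26 WT and 88 of 98 KO high cells. Adgre1, which encodes F4/80, had 151 and 312 CPM. The efferocytosis receptor Mertk had 137 and 39.8 CPM, and Fcgr1, which encodes CD64, had 109.6 and 61.8 CPM. With each cell thinned to 2000 UMIs, Adgre1 was detected in 23.8% of WT and 45.5% of KO high cells, against 0.637% and 0.662% of 482 WT and 152 KO lymphocyte cells outside the gate. These had at least 3 UMIs of Cd3e, Cd3d and Cd79a, did not meet the C1q limits, and had median depths of 6741 and 5105 UMIs. They serve below as the background for transcripts that reach other cells. At 2000 UMIs per cell, Mertk was found in 28.6% of WT and 7.95% of KO high cells, and Fcgr1 in 23.8% and 12.5%. In the lymphocyte cells these shares were at most 0.662%. Summed over the cells, the macrophage label was thus met in both libraries. It was not settled for each cell, and some high cells carried UMIs of other lineages, as given below.

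Markers of other cell types were summed as lists. The 12 T and natural killer cell genes summed to 41.1 CPM in WT and 92.1 CPM in KO high cells, and Trac and Trbc2 were at 0 in both. The mast cell and basophil list summed to 0 and 1.05 CPM, and the eosinophil list to 6.85 and 28.3 CPM with Epx and Il5ra at 0. The dendritic cell list summed to 199 and 281 CPM, close to 269 and 265 CPM in low cells. The B and plasma cell list reached 3081 CPM in WT high cells and 3442 CPM in WT low cells, against 166 and 153 CPM in KO. The WT sums came mostly from the immunoglobulin genes Igha and Igkc, while Ms4a1 was at 0 in WT high cells. In WT low cells, the leading cell of each gene held 33.2% of the Igha and 53.2% of the Igkc UMIs. In WT high cells, these shares were 26.8% and 47.4%. Both WT sums thus rest in good part on few cells, and their order without those cells was not tested. The neutrophil list reached 2499 CPM in WT high cells against 702 CPM in WT low cells, 417 CPM in KO high cells and 804 CPM in KO low cells, with the granule genes Camp and Ltf at 0 in all 4 groups. All 146 S100a8 UMIs of WT high cells came from 3 cells. A stricter exclusion that also removed cells with a UMI of 10 further lineage genes, Csf3r of neutrophils among them, left 15 WT and 67 KO high cells. With it, the log2 ratio of S100a8 in WT high to low cells was -0.58 in place of 4.38, and values that turn on it are given below. The 12 monocyte genes summed to 1479 CPM in WT and 549 CPM in KO high cells, against 2627 and 1226 CPM in low cells.

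The next values chose the cells and are given as a description. Ccl3+Ccl4 made up 0.509% to 1.78% of the UMIs of WT high cells, with a median of 0.738%. In KO high cells they made up 0.505% to 7.32%, with a median of 1.50%. No WT cell of the gate reached 2%, and 37 KO cells did. The limit cut a continuous range: just below it lay cells of 0.4998% in WT and 0.483% in KO, and just above it cells of 0.509% and 0.505%. Between 0.4% and 0.5% there were 17 WT and 9 KO cells, and between 0.5% and 0.6% there were 8 WT and 12 KO cells. Whether the high cells form a separate type was not tested. Ccl3 (ENSMUSG00000000982, chr11:83647844-83649355, minus strand of GRCm38) had 1671 CPM in WT and 3852 CPM in KO high cells, and 298 and 374 CPM in low cells. Ccl4 (ENSMUSG00000018930, chr11:83662584-83664683, plus strand) had 7894 and 14833 CPM in high cells, and 488 and 1309 CPM in low cells.

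**Figure D1:**
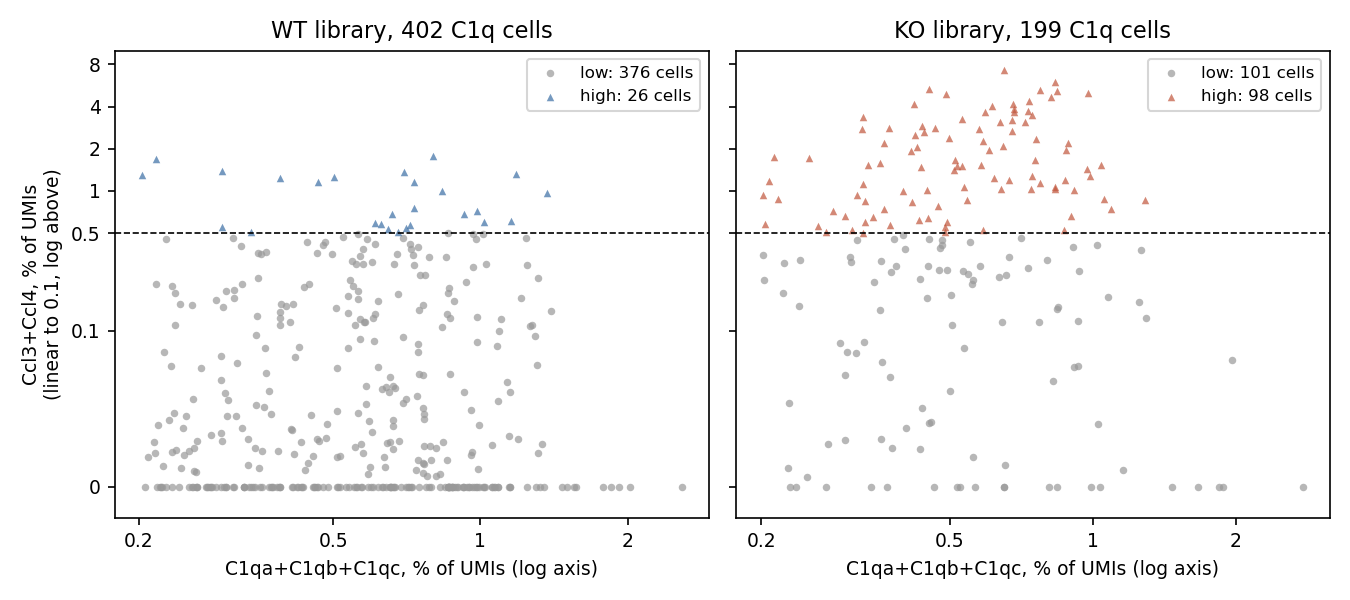
Ccl3+Ccl4 as a percent of UMIs (y axis, linear to 0.1 and logarithmic above) against C1qa+C1qb+C1qc as a percent of UMIs (x axis, logarithmic) for every C1q cell of the WT library (left) and the KO library (right). Each point is a cell, triangles are high cells and the dashed line is the limit of 0.5%. Points run without a gap across the line in both panels, and those above 2% are KO cells.

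High cells made up 6.47% of the C1q cells in WT (26 of 402, 95% Clopper-Pearson interval 4.27 to 9.33) and 49.2% in KO (98 of 199, 42.1 to 56.4), a ratio of 7.61. As a share of all filtered cells they were 1.00% in WT (0.655 to 1.46) and 3.90% in KO (3.18 to 4.73). C1q cells themselves were 15.5% of WT cells (14.1 to 16.9) and 7.92% of KO cells (6.89 to 9.04), so the larger KO share of high cells sat in a smaller C1q gate. The KO share was above the WT share at each of 8 other settings of the cell filter and the gate, by 3.92 to 12.5 times. High Ccl3+Ccl4 was not limited to C1q cells, since 4.28% of WT cells (94 of 2195) and 14.1% of KO cells (326 of 2315) outside the gate also reached 0.5% of UMIs. High C1q cells held 14.6% of all Ccl3+Ccl4 UMIs of the WT library and 35.9% of those of the KO library, with 0.769% and 4.28% of all UMIs. In the lymphocyte cells, the pooled share of Ccl3+Ccl4 was 0.0200% in WT and 0.0107% in KO, and that of C1q was 0.00321% and 0.00311%. Their C1q share was kept low by the choice of cells that did not meet the C1q limits. Over all 485 WT and 159 KO cells with at least 3 UMIs of Cd3e, Cd3d and Cd79a, it was 0.00491% and 0.0416%.

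High cells were compared with low C1q cells of the same library to see which other transcripts went along with Ccl3 and Ccl4. A gene was called when its level differed at least 2-fold, on a log2 ratio with 10 CPM added to both levels, and when the 2 cell groups held at least 50 of its UMIs. The fold values printed are ratios of the CPMs themselves. Of 4030 genes measured in both libraries, 10 (0.248%) were at least 2-fold higher in high cells in WT and in KO, Ccl3 and Ccl4 by the rule among them. The others were Tnf, Cxcl10, Vcam1, Hpgds, Isg15, Oasl1, Lag3 and Fmnl2. The sign of the ratio was shared by 54.7% of the 4030 genes. Because the cells were chosen by transcripts of the same libraries, these ratios are a description.

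Tnf, the inflammatory cytokine (ENSMUSG00000024401, chr17:35199381-35202007, minus strand), had 1034 CPM in WT high cells and 275 CPM in WT low cells, 3.75-fold (95% interval 3.12 to 4.49) higher. In KO, it had 2052 and 543 CPM, 3.78-fold (95% interval 3.43 to 4.17) higher. Its order from low WT cells through low KO and high WT cells to high KO cells had no overlap of counting intervals between neighbours. Cxcl10, a Cxcr3 ligand that interferons induce (ENSMUSG00000034855, chr5:92346638-92348889, minus strand), had 3423 and 325 CPM in WT, 10.5-fold (95% interval 9.40 to 11.8) higher in high cells, and 1650.0 and 721 CPM in KO, 2.29-fold (95% interval 2.09 to 2.51) higher. In WT, 1 cell held 35.4% of these Cxcl10 UMIs, and without that cell, the one of greatest depth, the ratio was 7.98-fold. Both genes were higher in high cells of each library, and the Cxcl10 ratio was the larger in WT.

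Vcam1, an adhesion molecule of macrophages and endothelium, had 582 and 178 CPM in WT high and low cells, 3.27-fold (95% interval 2.56 to 4.14) higher, and 153 and 57.1 CPM in KO, 2.68-fold (95% interval 1.95 to 3.72) higher. Hpgds, which makes prostaglandin D2, was 2.34-fold (95% interval 1.58 to 3.36) higher in WT and 2.80-fold (95% interval 2.21 to 3.56) higher in KO, from 99.6 to 233 CPM and from 101 to 282 CPM. Isg15, a ubiquitin-like protein that interferons induce, was 2.10-fold (95% interval 1.56 to 2.77) higher in WT and 2.35-fold (95% interval 2.04 to 2.71) higher in KO. In WT, the share of cells with an Isg15 UMI was 46.2% in high and 44.7% in low cells. The 5 leading cells held 75% of its WT high UMIs. Tnf, Cxcl10, Vcam1, Hpgds and Isg15 had a UMI in at least 10 high cells of each library, and the next 3 genes did not. Oasl1, an interferon-induced member of the OAS family, had 260.2 and 73.5 CPM in WT high and low cells, from 8 high cells, and 477 and 225 CPM in KO. Lag3 and Fmnl2 had 17 and 10 UMIs in WT high cells. Under 13 other settings, Tnf and Cxcl10 remained called in both libraries each time, Vcam1 in 11, Hpgds, Isg15 and Oasl1 in 9, Lag3 in 7 and Fmnl2 in 3. Of these genes, Tnf and Cxcl10 alone remained in cells thinned to 2000 UMIs, and again at a limit of 0.25% Ccl3+Ccl4.

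Promoter windows from 250 bases before to 50 after the start of a gene were taken from RefSeq (GRCm38.p6) and searched on both strands. Of the 10 genes higher in high cells of both libraries, 7 had a window. The NF-kB consensus was found in 2 of them (Cxcl10 and Oasl1), the interferon-stimulated response element (ISRE) in 2 (Cxcl10 and Isg15), the AP-1 motif TGANTCA in 1 (Cxcl10) and the CRE motif TGACGTCA in none. Over all 32841 windows, the shares were 8.46%, 3.44%, 7.81% and 1.79%, respectively. Of the 7 genes lower in high cells of both libraries, named below, 3 had a window. The NF-kB consensus was in 1 of these (Kcnn4) and the other motifs in none. The windows of Ccl3 and Tnf held none of the 4, which says only that these letters are not in these windows. The matches of Cxcl10, called in both libraries, and of Ifnb1, found almost only in KO, are shown on the strand of the gene with 8 bases on each side and the motif in capitals. A match is not a measured site.
Cxcl10 ISRE (chr5:92349085-92349110, minus strand): acgctttgGAAAGTGAAActtacctc
Cxcl10 NF-kB, distal (chr5:92349031-92349056, minus strand): aggggagaGGGAAATTCCaagttcat
Cxcl10 NF-kB, proximal (chr5:92348976-92349001, minus strand): ggtttacaGGGGACTTCCctcgggtt
Cxcl10 AP-1 (chr5:92348949-92348971, minus strand): agccttgcTGAGTCAtctccaaa
Ifnb1 NF-kB (chr4:88522893-88522918, minus strand): ctgaaagtGGGAAATTCCtctgaggc
The proximal Cxcl10 site has a second match shifted by 1 base.

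Lower in high cells of both libraries were 7 genes (0.174%), namely Fn1, Mmp19, Retnla, Tppp3, Kcnn4, S100a4 and Il22ra2. Fn1, the matrix protein fibronectin, was at 0 UMIs in WT high cells and had 76.1 CPM in WT low cells, at least 3.71-fold lower against a floor of 3 UMIs. In KO, Fn1 had 186 and 792 CPM, 4.25-fold (95% interval 3.61 to 5.03) lower in high cells. Retnla, a gene of alternative activation, had 1 UMI in WT high cells against 101 CPM in low cells, and 849 against 2327 CPM in KO, 2.74-fold (95% interval 2.53 to 2.97) lower. A single KO high cell held 46.4% of these Retnla UMIs. The WT low level came from 12 of 376 cells, with 92.8% of its 237 UMIs in 5 cells and 42.6% in 1. S100a4, a calcium-binding protein of recruited monocytes, was 2.25-fold (95% interval 1.47 to 3.61) lower in WT and 2.37-fold (95% interval 2.13 to 2.63) lower in KO. The matrix metalloproteinase Mmp19 had 1 UMI in WT high cells against 108 CPM in low cells, and 26.2 against 98.7 CPM in KO. Kcnn4, a calcium-activated potassium channel, had 1 UMI in WT high cells against 47.0 CPM in low cells. Il22ra2, a soluble receptor that binds IL-22, had no UMI in WT high cells and 204 in WT low cells, and 6 and 72 UMIs in KO. Of these genes, S100a4 had the highest level in WT high cells, at 151 CPM. Under the 13 other settings, Fn1 remained called in both libraries in 12, Retnla in 11, S100a4, Tppp3 and Il22ra2 in 10, Mmp19 in 9 and Kcnn4 in 8. In cells thinned to 2000 UMIs, 2 of the 7 remained (Fn1 and Tppp3). Under the stricter lineage exclusion the KO log2 ratio of Il22ra2 was 1.05, so its direction did not hold.

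**Figure D2:**
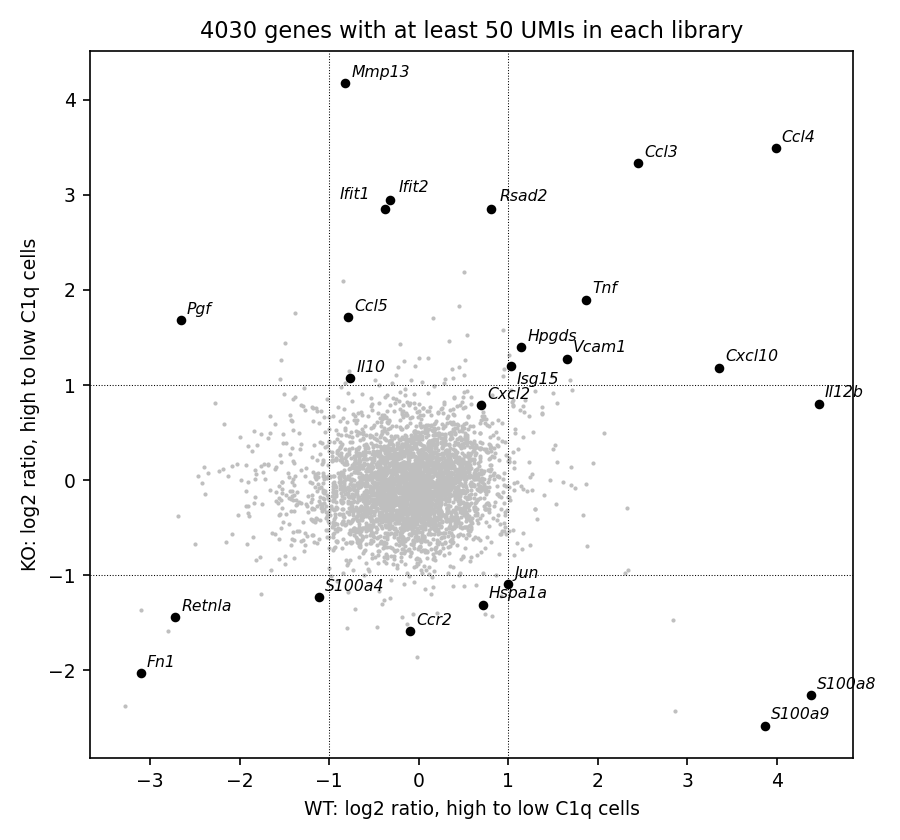
Log2 ratio of high to low C1q cells in WT (x axis) and in KO (y axis), with 10 CPM added to each level, for the 4030 genes with at least 50 UMIs over both cell groups of each library. Grey points are genes, black points are named and dotted lines mark 2-fold. Besides Ccl3 and Ccl4, Tnf and Cxcl10 stand in the upper right, Mmp13 at 4.18 in KO lies left of 0 in WT, and S100a8 and S100a9 lie on opposite sides of 0 in the 2 libraries.

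Other chemokines were compared over a list of 17 genes that leaves out Ccl3 and Ccl4. In KO, 4 of 15 measured members were at least 2-fold higher in high cells (background 1.45%) and none was lower (background 1.18%), with a median log2 ratio of 0.19 against -0.07 over all genes. In WT, 4 of 15 were higher (background 2.13%) and 5 were lower (background 7.48%), with a median of -0.19 against -0.08. The 4 genes called in WT were Cxcl1, Cxcl10, Ccl2 and Ccl12, and those called in KO were Cxcl10, Ccl5, Ccl7 and Ccl22. Cxcl10 was thus the 1 member called as higher in both. Ccl22, a ligand of Ccr4, had 13.7 CPM (2 UMIs) in WT high and 56.9 CPM in WT low cells, and 121 and 38.4 CPM in KO. Its ratios thus pointed in opposite directions, but 1 WT low cell held 93 of its 133 WT low UMIs (69.9%). With C1q of at least 0.5%, the WT log2 ratio was 0.80 in place of -1.50. The WT median ranged over -0.23 to 0.41 under the other settings and the KO median over 0.17 to 1.01.

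Ccl2, the main Ccr2 ligand for monocytes, had 787 and 234 CPM in WT high and low cells, 3.36-fold (95% interval 2.72 to 4.12) higher, and 949 and 864 CPM in KO, where the ratio was 1.10. Ccl7, another Ccr2 ligand, had 164 and 133 CPM in WT and 725 and 351 CPM in KO, a ratio of 1.23 and 2.06. Ccl12, also a Ccr2 ligand, was 3.61-fold (95% interval 2.46 to 5.19) higher in WT, with 94.6% of its UMIs in 5 cells, and 2.00-fold (95% interval 1.59 to 2.52) higher in KO. Of the 3 ligands, with 10 CPM added, Ccl2 and Ccl12 were past 2-fold in WT and Ccl7 in KO, and the WT value of Ccl7 rests on 24 UMIs in high cells.

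Ccl5, a further CC chemokine that attracts T cells and monocytes, had 787 CPM in KO high cells and 233 CPM in KO low cells. In WT, its levels were 103 CPM (15 UMIs) and 185 CPM. At 2000 UMIs per cell, Ccl5 was found in 23.8% of WT high, 12.5% of WT low, 46.6% of KO high and 9.20% of KO low cells. It was found in 29.3% of WT and 17.9% of KO lymphocyte cells, but T cells express Ccl5 themselves, so these shares are no measure of stray Ccl5 transcripts, and none was made for this gene. Cxcl2, a neutrophil attractant, had 9928 and 6101 CPM in WT and 23832 and 13784 CPM in KO, 1.63-fold (95% interval 1.54 to 1.72) and 1.73-fold (95% interval 1.69 to 1.77) higher in high cells. Cxcl1, another neutrophil attractant, was 2.88-fold (95% interval 2.47 to 3.33) higher in WT, where 1 cell held 58.8% of its UMIs, and 1.89-fold (95% interval 1.77 to 2.02) higher in KO. Both neutrophil attractants had their highest level of the 4 groups in KO high cells.

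Of 18 cytokine genes, 5 of 12 measured were at least 2-fold higher in WT high cells (background 2.13%) and 3 of 13 in KO high cells (background 1.45%), with none lower in either. In KO, these were Ifnb1, Tnf and Il10. Il10, the anti-inflammatory cytokine of gut macrophages, had 1205 CPM in KO high and 568 CPM in KO low cells, 2.12-fold (95% interval 1.91 to 2.35) higher. In WT, Il10 had 342 and 589 CPM, and all 50 UMIs of the high cells came from 5 cells. Il1b, the inflammasome cytokine, had 2191 and 3015 CPM in WT and 2691 and 2364 CPM in KO, with ratios of 0.727 and 1.14. Il10 thus lay above its low-cell level in KO and below it in WT, whereas Il1b stayed under a 2-fold difference in both.

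In WT, the 5 were Tnf, Il1a, Il12b, Il23a and Tnfsf9. Il1a had 246 and 50.9 CPM in WT high and low cells, from 7 high cells, and 441 and 311 CPM in KO. Il12b, the shared subunit of IL-12 and IL-23, had 459 CPM in WT high cells, but its 67 UMIs came from 3 cells and 1 of them held 71.6%. At a limit of 1%, the WT log2 ratio of Il12b was -0.86, so its direction did not hold. Il23a had 19 UMIs in 5 WT high cells. Tnfsf9, a ligand of the tumour necrosis factor family, had 397 CPM in WT high and 137 CPM in WT low cells, from 11 high cells of which 1 held 37.9% of the UMIs, and 308 and 307 CPM in KO. The WT values of Il1a, Il12b and Il23a thus rest on fewer than 10 cells.

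**Figure D3:**
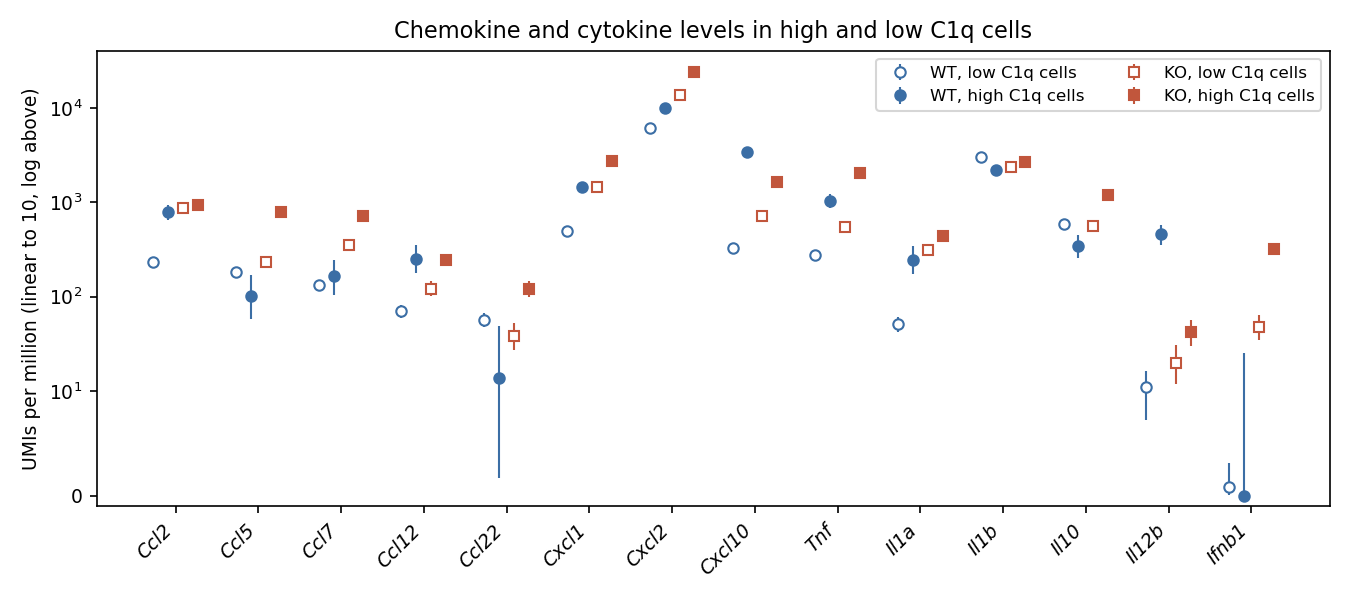
Levels of 14 chemokine and cytokine genes in CPM (y axis, linear to 10 and logarithmic above) in low (open) and high (filled) C1q cells of the WT (circles) and KO (squares) libraries, with exact Poisson 95% intervals. Tnf and Cxcl10 are higher in high cells of both libraries, and Ifnb1 is at 0 UMIs in WT high cells and at 319 CPM in KO high cells.

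Ifnb1, which encodes interferon beta (ENSMUSG00000048806, chr4:88522025-88522774, minus strand), was detected in 48 of 98 KO high cells and in 6 of 101 KO low cells, with 319 and 47.8 CPM, 6.68-fold (95% interval 4.89 to 9.32) higher in high cells. None of the 26 WT high cells had an Ifnb1 UMI, which allows a share of cells with a UMI of up to 11.5% (3 counts of 26) or, by the Clopper-Pearson interval, 13.2%, and 1 of 376 WT low cells did. At 2000 UMIs per cell, Ifnb1 was detected in 37.5% (33 of 88, 95% interval 27.4 to 48.5) of KO high cells, in 5.75% of KO low cells and in 0 of 21 WT high cells (upper bound 16.1%). No lymphocyte cell carried it in either library. Among the C1q cells, Ifnb1 UMIs thus came from KO cells and that 1 WT cell.

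Several genes that type I interferon induces were higher in KO high cells. Of 11 measured members of a list of 20, 6 were at least 2-fold higher (background 1.45%) and none was lower in KO (background 1.18%), with a median log2 ratio of 1.05 against -0.07 over all genes. In WT, 2 of 16 were higher (background 2.13%) and 1 was lower (background 7.48%), with a median of 0.06 against -0.08. The KO and WT counts do not cover the same members, because a measured gene needs a minimum of UMIs in each library. That minimum could be met through the high cells alone, as it was for Ifit1 and Ifit2 in KO. Members with few UMIs in both kinds of KO cell were left out. Under the other settings the KO median ranged over 0.91 to 1.86 and the WT median over -0.21 to 0.46. Rsad2, an antiviral enzyme also called viperin, had 548 and 67.5 CPM in KO high and low cells, 8.11-fold (95% interval 6.26 to 10.7) higher, and 260.2 and 144 CPM in WT, 1.81-fold (95% interval 1.26 to 2.53) higher. Ifit1, which binds viral RNA, had 152 and 12.5 CPM in KO, 12.2-fold (95% interval 6.76 to 24.1) higher, and 27.4 and 38.5 CPM in WT. Ifit2, of the same family, had 131 and 8.31 CPM in KO, and 1 cell held 36.8% of the UMIs in high cells. The RNA sensor Ifih1 was 3.25-fold (95% interval 2.50 to 4.26) higher in KO and 2.09-fold (95% interval 1.18 to 3.48) higher in WT. The transcription factor Irf7 differed little in KO, at 26.2 and 23.9 CPM. Of the 11 members measured in KO, 8 had a log2 ratio above 0, so not every gene of the list was higher there.

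The 48 KO high cells with an Ifnb1 UMI were set beside the 50 without. The first had a median of 9727 UMIs and the second of 7102, and a deeper cell is more likely to show an Ifnb1 UMI. Ifit2 had 241 CPM in cells with Ifnb1 and 4.49 CPM in those without. Rsad2 had 778 and 283 CPM, Isg15 917 and 393 CPM, and Ccl5 1043 and 494 CPM. Tnf had 2654 and 1362 CPM, Il10 1535 and 827 CPM, and Ccl4 18014 and 11185 CPM. Cxcl2, at 25343 and 22100.5 CPM, and the MHC class II gene H2-Aa, at 10152 and 9039 CPM, were closer to each other. In KO low cells, 6 had an Ifnb1 UMI and 95 had none. There Ccl3, Tnf and Il10 were lower with Ifnb1, Tnf at 387 against 553 CPM and Il10 at 67.3 against 601 CPM. The other genes named in this paragraph were higher with it, such as Rsad2 at 707 against 25.5 CPM. The cells are from 1 library, and the split is a description.

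**Figure D4:**
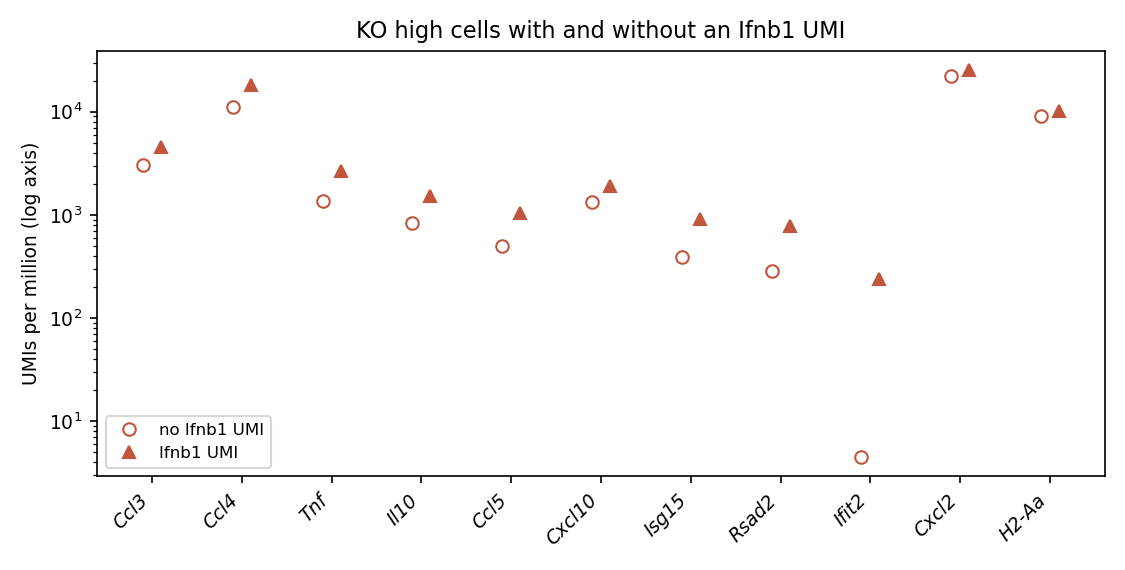
Levels of 11 genes in CPM (y axis, logarithmic) in KO high cells with an Ifnb1 UMI (filled triangles, 48 cells) and without one (open circles, 50 cells), from UMIs summed over the cells of each set. The widest gap is that of Ifit2, and Cxcl2 and H2-Aa show the narrowest.

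Among KO high cells thinned to 2000 UMIs, the rank correlation with Ccl3+Ccl4 across 88 cells was 0.49 for Il10 and 0.49 for Tnf, 0.40 for Cxcl10, 0.34 for Rsad2 and 0.32 for Ifnb1. It was 0.22 for H2-Aa and 0.17 for the C1q sum, 0.08 for Cxcl2, 0.04 for Il1b and -0.04 for Ccl2. The correlation with the untrimmed UMI count of the cell was -0.23. The cells share 1 library and were chosen for Ccl3+Ccl4, so these values describe how transcripts went together and carry no test.

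The range of Ccl3+Ccl4 within the high cells was wide. In WT, 5 cells held 55.6% of the Ccl3+Ccl4 UMIs of the 26 high cells, and in KO 5 cells held 21.9% of those of 98. Tnf was detected in 19 of 26 WT and 93 of 98 KO high cells, or in 73.1% and 94.9%. Of these, 21 WT and 88 KO cells held at least 2000 UMIs, and thinned to that depth Tnf was found in 66.7% (14 of 21, 95% interval 43.0 to 85.4) in WT and 88.6% (78 of 88, 95% interval 80.1 to 94.4) in KO. Cxcl10 was then found in 61.9% and 77.3%, from 69.2% and 85.7% at full depth. For Il10, the thinned shares were 19.0% (4 of 21, 95% interval 5.45 to 41.9) and 54.5% (48 of 88, 95% interval 43.6 to 65.2), from 19.2% and 75.5%. Rsad2 was found in 19.0% and 33.0% after thinning. In the lymphocyte cells the thinned shares were 4.88% and 4.64% for Tnf, 14.0% and 4.64% for Cxcl10, and 4.67% and 1.99% for Il10. Tnf and Cxcl10 were thus spread over most high cells of both libraries, and Il10 over most KO high cells.

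Targets and feedback genes of NF-kB, the factor behind much of the Tnf and chemokine response, were compared between high and low cells. In WT, none of 24 was at least 2-fold higher (background 2.13%) and 1 was lower (background 7.48%), Nfkb2 at 27.4 against 69.7 CPM. In KO, none of 23 was higher (background 1.45%) or lower (background 1.18%), so these counts are near the background. Without the WT cell of greatest depth, 2 were higher in WT, with no background share given for that setting. The median log2 ratios were -0.04 in WT and 0.05 in KO, against -0.08 and -0.07 over all genes. The inhibitor Nfkbia had 2951 and 2222 CPM in WT and 2019 and 2192 CPM in KO. Tnfaip3, which encodes the feedback enzyme A20, was 1.36-fold (95% interval 1.14 to 1.60) and 1.31-fold (95% interval 1.18 to 1.45) higher in high cells. Transcripts of both inhibitors were hence present on both sides of the limit.

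Immediate early genes, which stimuli induce within minutes, were read in both kinds of cell. In WT, 2 of 19 were at least 2-fold higher (background 2.13%) and 2 lower (background 7.48%), with a median of 0.34 against -0.08 over all genes. In KO, none of 18 was higher (background 1.45%) and 1 lower (background 1.18%), with a median of -0.32 against -0.07. Egr1 had 1082 and 432 CPM in WT high and low cells, 2.51-fold (95% interval 2.10 to 2.97) higher, and 631 and 780.0 CPM in KO. Atf3, a stress-induced repressor of inflammatory genes, was 2.24-fold (95% interval 1.76 to 2.82) higher in WT and 1.68-fold (95% interval 1.49 to 1.89) higher in KO. Jun, an AP-1 subunit, had 952 and 472 CPM in WT, and 265 and 575 CPM in KO, 2.17-fold (95% interval 1.87 to 2.53) lower. The chaperone Hspa1a, a mark of heat and dissociation stress, was 2.51-fold (95% interval 2.26 to 2.78) lower in KO high cells, with 535 against 1341 CPM, and was 1.66-fold (95% interval 1.30 to 2.10) higher in WT, with 541 against 325 CPM. A list of 17 heat shock and dissociation genes, 7 of them also in the immediate early list, summed to 15439.8 and 12109 CPM in WT high and low cells and to 12036 and 15027 CPM in KO. Of 16 measured in WT, 2 were at least 2-fold higher (background 2.13%) and none was lower (background 7.48%). Of 16 in KO, none was higher (background 1.45%) and 3 were lower (background 1.18%). Whether handling of the tissue had a part in these values was not tested.

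Several monocyte genes were lower in the high cells. Ly6c2, the marker of newly arrived monocytes, had 41.1 CPM (6 UMIs) in WT high and 337 CPM in WT low cells. In KO there were 2 UMIs in high and 20 in low cells. At 2000 UMIs per cell, Ly6c2 was found in 9.52% of WT high and 18.5% of WT low cells. It was found in 15.9% of WT lymphocyte cells, which may express Ly6c2 themselves, so that share is no measure of stray Ly6c2 transcripts. Ccr2, the receptor that draws monocytes into tissue, had 173 and 540.1 CPM in KO, 3.13-fold (95% interval 2.62 to 3.75) lower in high cells, and 514 and 549.9 CPM in WT. Without the WT cell of greatest depth, Ccr2 had 601 CPM in WT high cells, 1.09 times its level in low cells. Over the list, 4 of 9 measured genes in WT were at least 2-fold lower (background 7.48%) and 1 was higher (background 2.13%), and in KO 1 of 4 was lower (background 1.18%) and none higher (background 1.45%). The MHC class II list summed to 35303 CPM in WT high and 41434 CPM in WT low cells, and to 56391 and 47402 CPM in KO, so the sum was lower in high cells in WT and higher in KO. None of 9 genes in WT and 10 in KO was past 2-fold, against the same backgrounds, and the median log2 ratios were -0.33 and 0.12. H2-Aa, for one, had 7326 and 8886 CPM in WT high and low cells and 9633 and 8421 CPM in KO. The glycolysis and hypoxia list had median log2 ratios of -0.33 in WT and -0.11 in KO over 13 genes, none past 2-fold, which is near the background for so few genes. Of the lysosome and lipid list, 2 of 16 were higher in WT high cells (background 2.13%) and 2 of 16 were lower in KO high cells (background 1.18%), with medians of 0.09 and 0.11. Without the WT cell of greatest depth, 1 was higher and 2 were lower in WT, with no background share given for that setting, and the median was -0.24. That cell held all 34 UMIs of Gpnmb, a glycoprotein of lipid-laden macrophages, in WT high cells. It also held 87 of the 116 UMIs of Ctsd in WT high cells. Ctsd encodes the lysosomal protease cathepsin D. Its level in WT high cells was 794 CPM with the cell and 232 CPM without it, against 329 CPM in WT low cells. Of the genes of long-lived resident macrophages, 3 of 9 were higher in WT, against the same 2.13%, and in KO 2 of 11 were higher (background 1.45%) and 1 was lower (background 1.18%). Cd163, a scavenger receptor of long-lived tissue macrophages, had 185 CPM in WT high and 14.5 CPM in WT low cells, from 5 and 15 cells.

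Mmp13, a collagenase (ENSMUSG00000050578, chr9:7272514-7283331, plus strand), had the largest log2 ratio of high to low cells in KO among the 4148 genes measured there, at 4.18. It had 1167 CPM in KO high cells (1115 UMIs in 54 cells) and 55.0 CPM in KO low cells, 21.2-fold (95% interval 16.1 to 28.5) higher. In WT, it had 95.9 CPM in high and 177 CPM in low cells, a ratio of 0.542. Pgf, a ligand of the receptor Flt1, had the same direction within each library, with 146 and 38.4 CPM in KO high and low cells and 6.85 (1 UMI) and 96.6 CPM in WT.

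KO and WT were then compared within the high cells, with the low cells beside them. Of 2812 genes measured, 231 (8.21%) were at least 2-fold higher and 172 (6.12%) at least 2-fold lower in KO. In low cells the same counts were 124 (2.07%) and 203 (3.39%) of 5994 genes. The WT side of the high cells is 26 cells, so that a gene at 50 UMIs in all may rest on few WT UMIs.

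Highest in KO among genes found in at least 10 cells were Retnla, Ifnb1, Fn1, Pf4, Mmp13, Pgf, Tppp3, Rcan1, Areg and Ednrb. Ifnb1 had 319 CPM in KO high cells and no UMI in WT high cells, at least 15.5-fold higher against a floor of 3 UMIs over the WT cells. Mmp13 was 12.2-fold (95% interval 7.23 to 22.3) higher in KO high cells, and in low cells it had 55.0 CPM in KO and 177 CPM in WT. Pf4, a platelet chemokine that macrophages also express, was 14.1-fold (95% interval 6.79 to 35.1) higher in KO high cells and 5.35-fold (95% interval 4.70 to 6.10) higher in KO low cells. Areg, a ligand of the epidermal growth factor receptor, was 11.4-fold (95% interval 3.86 to 55.8) higher in high cells, from 3 WT UMIs, and 2.79-fold (95% interval 2.12 to 3.69) higher in low cells. Rcan1, an inhibitor of calcineurin, had 188 CPM in KO and 13.7 CPM (2 UMIs) in WT high cells, and 36.4 and 32.5 CPM in low cells. Retnla and Fn1 were higher in KO in low cells as well, at 2327 against 101 CPM and 792 against 76.1 CPM. The 10 genes stayed at least 2-fold higher under each of the 8 other settings of the filter and the gate, except for Retnla in thinned cells.

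Lowest in KO were Lgals3bp, Gbp2, Klf10, AW112010, Acod1, Cebpa, Ddi2, Vcam1, Jun and Ifngr2. Gbp2, a GTPase that interferon gamma induces, had 38.7 CPM in KO and 212 CPM in WT high cells, 5.48-fold (95% interval 3.29 to 9.08) lower, and 4.19-fold (95% interval 3.01 to 5.98) lower in KO low cells. Vcam1 was 3.81-fold (95% interval 2.88 to 5.01) lower in KO high cells and 3.11-fold (95% interval 2.35 to 4.20) lower in KO low cells. Acod1, which makes itaconate, was 4.36-fold (95% interval 3.11 to 6.08) lower in KO high cells, with 53.2% of its WT UMIs in 1 cell, and had 101 and 109 CPM in low cells. Under the stricter lineage exclusion its log2 ratio in high cells was 0.45, so the direction did not hold. Lgals3bp was 11.6-fold (95% interval 8.46 to 15.9) lower, with 66.1% of its WT UMIs in the cell of greatest depth, and 313 CPM in WT without that cell. Ifngr2, a chain of the interferon gamma receptor, had 37.7 CPM in KO and 151 CPM (22 UMIs) in WT high cells, and was 1.41-fold (95% interval 1.08 to 1.87) lower in KO low cells. Cebpa, a myeloid transcription factor, was 4.23-fold (95% interval 2.83 to 6.27) lower in high cells and 1.58-fold (95% interval 1.25 to 2.02) lower in low cells. Of the 10 genes, 8 stayed at least 2-fold lower under the stricter lineage exclusion, which lost Acod1 and Cebpa. Vcam1 was not past 2-fold at a limit of 1% and Ifngr2 at 0.25%.

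Chemokines were compared by genotype in both kinds of cell. In high cells, 7 of 14 were at least 2-fold higher (background 8.21%) and 1 was lower (background 6.12%), with a median log2 ratio of 1.09 against -0.03 over all genes, and in low cells 11 of 17 were higher (background 2.07%) and 2 lower (background 3.39%), with a median of 1.17 against -0.13. Ccl5 had 787 CPM in KO high cells and 103 CPM (15 UMIs) in WT high cells. Cxcl2 was 2.40-fold (95% interval 2.28 to 2.53) higher in high and 2.26-fold (95% interval 2.21 to 2.31) higher in low cells, and Ccl7 4.41-fold (95% interval 2.94 to 6.93) and 2.63-fold (95% interval 2.25 to 3.08) higher. Cxcl10 was 2.07-fold (95% interval 1.87 to 2.30) lower in KO high cells and 2.22-fold (95% interval 2.00 to 2.47) higher in KO low cells. Under the stricter lineage exclusion its log2 ratio in high cells was -0.24, and without the WT cell of greatest depth it was -0.65, both under 2-fold. Ccl2 was 1.20-fold (95% interval 0.991 to 1.48) higher in high cells and 3.69-fold (95% interval 3.31 to 4.12) higher in low cells.

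Interferon-stimulated genes were compared in the same way. In high cells 5 of 10 were at least 2-fold higher in KO (background 8.21%) and 2 were lower (background 6.12%), with a median of 0.95. In low cells 1 of 16 was higher (background 2.07%) and 9 were lower (background 3.39%), with a median of -1.19. The 10 and the 16 are not the same set of genes, and most UMIs of the high cells came from KO. The counts and medians of the 2 kinds of cell are thus not directly comparable. Ifit1 and Rsad2 were measured in both. Ifit1 was 5.54-fold (95% interval 2.12 to 20.6) higher in KO high cells, from 4 WT UMIs, and 3.09-fold (95% interval 1.68 to 6.20) lower in KO low cells. Rsad2 was 2.10-fold (95% interval 1.51 to 3.01) higher in KO high cells and 2.13-fold (95% interval 1.63 to 2.83) lower in KO low cells. Without the WT cell of greatest depth, 3 of the list were at least 2-fold higher in high cells, with a median of 0.80, and the log2 ratio of Rsad2 was 0.86. No background share is given for that setting, so nothing is read from its count.

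The immediate early genes were also compared by genotype. In high cells 8 of 17 were at least 2-fold lower in KO (background 6.12%) and 1 was higher (background 8.21%), with a median of -0.77, and in low cells none of 19 was past 2-fold in either direction (background 2.07% higher and 3.39% lower), with a median of 0.04. Under the other settings the median in high cells ranged over -1.08 to 0.03, with the value above 0 at a minimum of 200 UMIs per gene. The difference between the kinds of cell was not tested. Of 16 heat shock and dissociation genes, 4 were at least 2-fold lower in KO high cells (background 6.12%) and none was higher (background 8.21%), and those 4 (Fos, Jun, Junb and Ier2) are also immediate early genes. Their list summed to 12036 CPM in KO and 15439.8 CPM in WT high cells, with a median log2 ratio of 0.13. In low cells, 2 were higher in KO (Hspa1a and Hspa1b, background 2.07%) and none was lower (background 3.39%). The part of tissue handling in the genotype values was not tested. Junb had 2129.6 CPM in KO and 5471 CPM in WT high cells, 2.57-fold (95% interval 2.36 to 2.79) lower, and 1.63-fold (95% interval 1.56 to 1.71) lower in low cells. Fos was 2.49-fold (95% interval 2.10 to 2.94) lower in high cells and 1.14-fold (95% interval 1.06 to 1.23) lower in low cells. Jun was 3.59-fold (95% interval 2.90 to 4.44) lower in high cells, and in low cells had 575 CPM in KO and 472 CPM in WT.

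**Figure D5:**
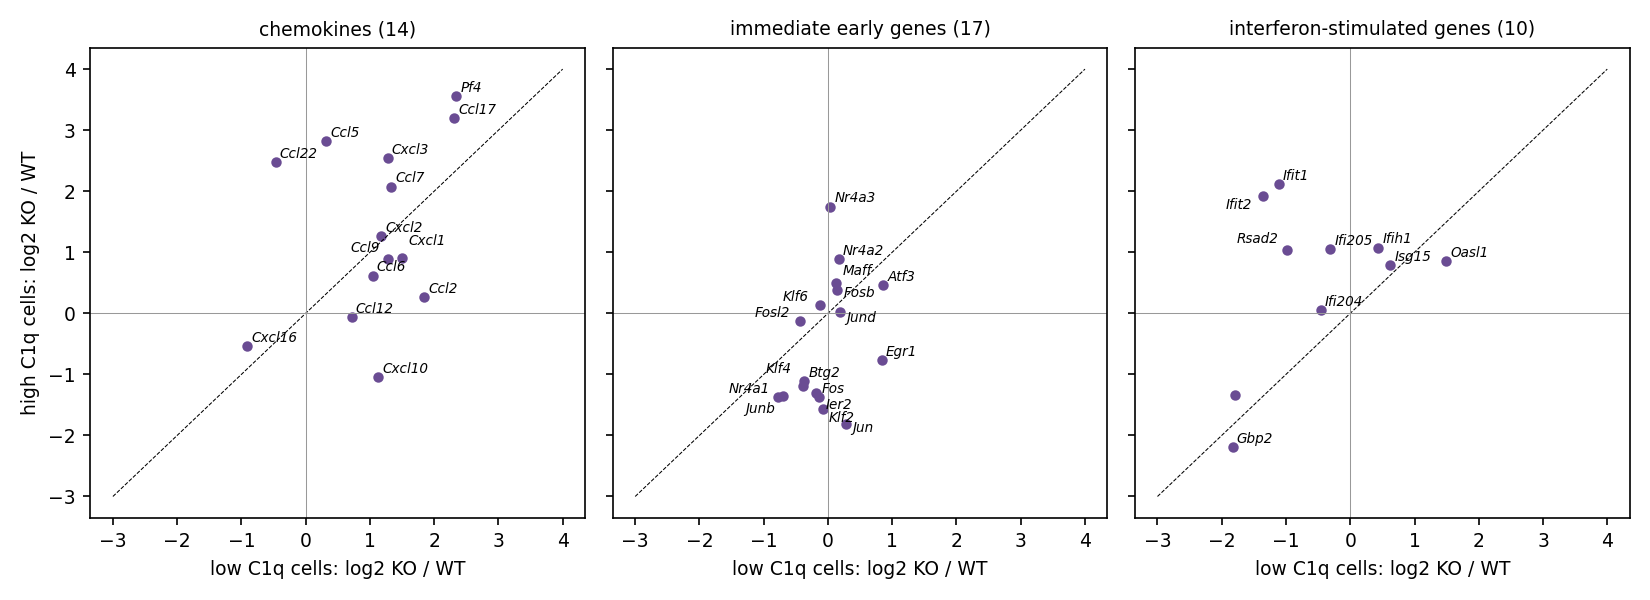
Log2 ratio of KO to WT in high C1q cells (y axis) against the same ratio in low C1q cells (x axis), with 10 CPM added to each level, for the members of 3 gene lists with at least 50 UMIs in both comparisons. Each point is a gene, most of them named, and the dashed line marks equal ratios. Ccl5 and Ccl22 lie above the line, Ifit1, Ifit2 and Rsad2 are above 0 in high and below 0 in low cells, and Jun is the lowest of the immediate early genes in high cells.

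The genes that the study followed in its macrophages were read in the high cells. Runx3, the transcription factor at the centre of the study, had 239.6 CPM in WT high cells (95% interval 167 to 333) and 148 CPM in KO high cells (124 to 174). The WT cell of greatest depth held 40.0% of the 35 WT UMIs, and without it the WT level was 168 CPM and the log2 ratio of KO to WT was -0.18 in place of -0.66. In low cells it had 271 CPM in WT and 167 CPM in KO. The nuclear receptor Nr4a1 had 349 CPM in WT and 129 CPM in KO high cells, and 306 and 174 CPM in low cells. Zfp36, which speeds the decay of Tnf and chemokine transcripts, had 2739 and 1401 CPM in high cells, 1.96-fold (95% interval 1.74 to 2.19) lower in KO, and 1.43-fold (95% interval 1.34 to 1.54) lower in low cells. Zfp36 was also higher in high than in low cells of each library, by 1.69-fold (95% interval 1.52 to 1.88) in WT and 1.24-fold (95% interval 1.15 to 1.35) in KO. Runx3, Nr4a1 and Zfp36 belong to a list of 11 genes the study followed, some of them picked from these libraries, so the list is not independent evidence of a direction. Of 10 measured in high cells, 2 were at least 2-fold higher in KO (Ccl5 and Pak1, with 15 and 4 WT UMIs, background 8.21%) and 1 was lower (Nr4a1, background 6.12%), with a median of 0.14 against -0.03 over all genes. Without the WT cell of greatest depth, 1 was higher and 2 were lower, with a median near 0 and no background share given for that setting. Thinned to 2000 UMIs, Nr4a1 was found in 57.1% of WT and 29.5% of KO high cells and in 39.4% and 34.5% of low cells, against 45.2% and 58.9% of lymphocyte cells. Runx3 was found in 23.8% and 20.5% of high and 37.3% and 23.0% of low cells, against 20.8% and 20.5%. Lymphocytes express both genes themselves, so these shares are no measure of stray transcripts, and none was made for the 2 genes. The phosphatase gene Dusp1 was also lower in KO, with 2670.3 and 1540.1 CPM in high cells. Il1b had 2191 and 2691 CPM in WT and KO high cells, 1.23-fold (95% interval 1.09 to 1.38) higher, and 1.28-fold (95% interval 1.22 to 1.34) lower in KO low cells.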

How the data were processed

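Single cells of the colon lamina propria were sequenced with the 10x 3' V3 chemistry, 1 library per genotype. The authors deposited whole-number UMI counts per gene and barcode, which the file headers credit to Cell Ranger 3.0.2. The submitters' processing notes name mm10 and Seurat 4. The strand setting of the counting is not given in the sources used here, and genes with near-identical copies may share UMIs. The WT barcodes in the files (3185) are far fewer than the cells the study states for WT, while the KO barcodes (3020) are close to its number. The study's filter (200 to 6000 genes, at most 15% mitochondrial UMIs) kept 2597 WT and 2514 KO cells.

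Cells were taken by the rule at the head of the report, from the counts as deposited. No cluster was built and no doublet caller was run, and cells with a UMI of Cd3e, Cd3d or Cd79a were left out. The members and the gene lists were chosen with earlier results of these data known. UMIs were summed per library and cell group and given per 1000000 UMIs (CPM). With 1 library per group there is no test. Intervals are exact 95% ones (Poisson for levels, Clopper-Pearson for shares, conditional binomial for ratios). UMIs were captured molecules of a few cells, so the intervals leave out the spread between cells and mice. Calls used a log2 ratio with 10 CPM added and at least 50 UMIs. Named genes were the members of the lists, those past 2-fold in both libraries with a UMI in at least 10 cells of the higher group, and the 10 highest and 10 lowest KO to WT ratios in high cells, without mitochondrial, sex-linked and immunoglobulin genes. Further genes of the calls in both libraries were named after their values were seen. Shares of cells were also given after each cell was thinned to 2000 UMIs. The ratios, their intervals and the calls were tested on simulated counts summed per gene. These counts had no spread between cells, so that test does not cover levels that rest on few cells. Python 3.11.15, numpy 2.4.6, scipy 1.17.1, pandas 2.3.3 and matplotlib 3.10.9 were used. Gene coordinates are from GENCODE M21 (GRCm38).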

Additional observations from a re-analysis of the deposited data

Results flagged for a closer look

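For 6 genes the high to low ratio was past 2-fold in opposite directions in the 2 libraries. In each case the difference between the libraries was not tested. The log2 ratio of S100a8 was 4.38 in WT and -2.26 in KO, and that of S100a9, its partner in the neutrophil protein calprotectin, was 3.87 and -2.58. In WT high cells, 1 cell held 56.2% of the S100a8 UMIs, and in KO high cells 1 cell held 70.0%. Gpnmb, a membrane glycoprotein of lipid-laden macrophages, had 2.84 in WT and -1.47 in KO, and all 34 UMIs of the WT high cells came from 1 cell. Ccl22 had -1.50 in WT, from 2 UMIs in high cells and with 69.9% of the WT low UMIs in 1 cell, and 1.44 in KO. Pgf had -2.66 in WT, from 1 UMI in high cells, and 1.68 in KO. Retnlg, a further neutrophil gene, had -1.38 in WT and 1.76 in KO, but in KO it had -0.76 at a limit of 1% and -0.80 in thinned cells. S100a8, S100a9, Gpnmb and Ccl22 also changed sign in at least 1 library under other settings, as listed in the last paragraph.

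Barcodes removed by the cell filter were also read. Of those in KO, 7 met the rule for high cells, and of those in WT, 0 did. Adding every barcode left the ratio of the shares at 7.66.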

How the results depend on the processing

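No paired analysis was possible because each genotype has 1 library, and for the same reason no replicate could be left out. The share of high cells was higher in KO under all settings run, while both shares moved with the limit, to 2.74% in WT and 34.2% in KO at 1% of UMIs and to 16.7% and 65.3% at 0.25%. Counts of genes past 2-fold depended on most settings. At a limit of 1%, 255 genes were higher and 966 lower in WT, 107 and 169 in KO, and 17 and 36 in both. At 0.25%, 46 were higher and 90 lower in WT, and 143 were higher in KO than WT high cells. With C1q of at least 0.5%, 98 were higher and 74 lower in KO, and 130 and 91 between the genotypes. In cells thinned to 2000 UMIs, 68 were higher and 192 lower in WT, 51 and 38 between the genotypes, and 3 were lower in both. With more lineage markers excluded, 59 were higher in WT and 64 lower between the genotypes. With equal weight per cell, 236 and 664 were called in WT, 108 and 138 in KO, and 17 and 18 in both. A prior of 1 CPM gave 189 and 624 in WT, 91 and 98 in KO, and 14 lower in both. A minimum of 20 UMIs gave 251 and 682 in WT, 86 lower in KO, 431 and 378 between the genotypes, and 13 lower in both, and one of 200 UMIs gave 30 and 73, 29 and 19, 62 and 31, and 2 lower in both, in the same order. The last 2 settings test more or fewer genes by construction, and the cause of the other moves was not tested. Thinning moved the KO shares of cells with Il10, Rsad2 and Ifnb1 to 54.5%, 33.0% and 37.5%.

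Of 2207 gene values under the other settings, 23 changed the sign of a difference past 2-fold. With more lineage markers excluded, the log2 ratio of high to low cells in WT was -0.58 for S100a8, -0.80 for S100a9, -0.31 for Acod1 and -0.90 for Gpnmb, and in KO it was 0.79 for S100a8 and 1.05 for Il22ra2. The KO to WT ratio in high cells then was 1.05 for S100a8, 1.57 for S100a9 and 0.45 for Acod1. At 0.25%, the KO high to low ratio was 3.94 for S100a8 and 3.40 for S100a9, and the WT ratio of Pf4 was 0.30. With C1q of at least 0.5%, the KO ratios were 2.19 for S100a8 and 1.66 for S100a9, that of Ccl22 in WT was 0.80, and that of S100a4 between the genotypes was -0.28. At 1%, Il12b had -0.86 in WT and 1.39 between the genotypes, Gpnmb -2.24 in WT and Retnlg -0.76 in KO. In thinned cells, Retnlg had -0.80 in KO and S100a4 -0.068 between the genotypes. Without the WT high cell of greatest depth, a setting chosen after the data were seen, Gpnmb had -1.76 in WT. The WT high cells are 26 cells with 146051 UMIs, so that levels of a few UMIs per gene limit each comparison that includes them.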
